A study of Mus musculus with 16 samples.

Results

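The interleukins and interleukin receptors were read in visceral fat, namely the pad that surrounds the epididymis, of male mice with extra leukotriene A4 hydrolase (LTA4H) in their adipocytes and of control mice. The set was every protein-coding gene whose symbol starts with Il and a digit, apart from 5 genes that were left out by name (Il1b, Il18, Il1rn, Il1rl1 and Il33), and it held 78 of the 45777 genes in the deposited table. By role the 78 genes were 35 ligands, 40 receptor chains and 3 other genes (Il18bp, Il4i1 and Il4i1b). Of these, 49 passed the filter on low counts that left 19189 genes in all, and the tests cover those 49.

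There were 4 groups of 4 libraries: mice overexpressing LTA4H in adipocytes (OE) at 20 weeks of age after 16 weeks of high-fat diet, control mice (Ctrl) at 20 weeks, OE mice at 8 weeks after 4 weeks of the diet, and Ctrl mice at 8 weeks. All 16 mice were male and ate the high-fat diet, so no group was lean by design. LTA4H makes leukotriene B4, a lipid that attracts leukocytes. The labels name neither the promoter that drives the extra gene nor any further allele of the control mice. Age and the length of the diet changed together and cannot be told apart, nor can any batch that followed age. The labels number the mice but do not say how they were housed or processed, so the p-values measure the spread between these samples.

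Interleukins are secreted proteins by which leukocytes and tissue cells signal to each other. Most bind receptors built from a private chain and a chain shared by a family, such as the common gamma chain Il2rg, the gp130 chain Il6st, Il10rb or Il17ra. The chains of most families signal through JAK kinases and STAT factors, while the IL-1 and IL-17 receptor families signal through adaptor proteins. Decoy receptors such as Il1r2 bind a ligand without passing on its signal. In fat, macrophages, lymphocytes, mast cells, stromal cells and adipocytes all carry some of these chains.

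The promoters of 4 receptor genes called in both genotypes are printed. Il7r, Il13ra2 and Il3ra were higher at 20 weeks in both genotypes under every setting tried. Il17rc was lower in both and starts just behind its neighbour Il17re, but its call in Ctrl was lost with 2 surrogate variables in the fit. Il10ra and Il27ra were also higher in both genotypes under every setting, but no promoter was listed for them, nor for Il10rb and Il34. Each sequence is from RefSeq on GRCm38.p6, runs 5′ to 3′ on the gene's strand, and holds 250 bases before and 50 after a listed start site. For Il3ra and Il7r that site lies inside the RefSeq gene span. The span begins at 14345912 for Il3ra and, on the minus strand, at 9529941 for Il7r. Capitals mark matches on either strand to a STAT motif (TTCNNNGAA), the purine box (GAGGAA) or an AP-1 motif (TGANTCA).
Il7r, chr15:9529827-9530126, minus strand: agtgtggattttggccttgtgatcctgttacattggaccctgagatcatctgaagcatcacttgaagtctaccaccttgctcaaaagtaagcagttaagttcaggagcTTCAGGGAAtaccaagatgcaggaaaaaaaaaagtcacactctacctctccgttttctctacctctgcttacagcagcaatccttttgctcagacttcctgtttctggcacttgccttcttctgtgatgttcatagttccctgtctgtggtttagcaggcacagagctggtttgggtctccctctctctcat
Il13ra2, chrX:147429143-147429442, minus strand: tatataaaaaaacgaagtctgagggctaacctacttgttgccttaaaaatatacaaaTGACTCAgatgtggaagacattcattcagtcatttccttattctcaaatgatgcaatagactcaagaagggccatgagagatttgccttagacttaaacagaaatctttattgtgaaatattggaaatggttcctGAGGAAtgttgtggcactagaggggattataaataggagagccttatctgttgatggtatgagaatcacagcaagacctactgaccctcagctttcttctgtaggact
Il3ra, chr14:14346245-14346544, plus strand: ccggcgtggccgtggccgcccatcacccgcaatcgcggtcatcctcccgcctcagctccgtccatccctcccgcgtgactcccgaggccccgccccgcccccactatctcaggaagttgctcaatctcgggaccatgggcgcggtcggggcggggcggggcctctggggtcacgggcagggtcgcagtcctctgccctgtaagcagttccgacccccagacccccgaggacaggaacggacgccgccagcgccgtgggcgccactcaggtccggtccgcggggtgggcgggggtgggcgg
Il17rc, chr6:113471205-113471504, plus strand: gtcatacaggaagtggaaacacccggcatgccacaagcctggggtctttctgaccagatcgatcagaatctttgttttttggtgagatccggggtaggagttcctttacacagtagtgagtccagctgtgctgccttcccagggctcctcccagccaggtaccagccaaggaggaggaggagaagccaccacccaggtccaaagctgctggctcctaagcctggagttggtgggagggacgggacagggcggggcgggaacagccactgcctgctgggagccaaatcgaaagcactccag

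The Il7r window held 1 match to the STAT motif, which occurred in 8.3% of the 32851 promoters in the table. The Il13ra2 window held 1 purine box, found in 28.3% of all promoters, and 1 AP-1 motif, found in 7.81%. The Il3ra and Il17rc windows held none of these letters. GC content was 45.7% for Il7r, 37.7% for Il13ra2, 74.3% for Il3ra and 58.7% for Il17rc. The table held 45 promoters for 37 of the tested interleukin-named genes, of which 6 held the STAT motif, 15 the purine box and 8 the AP-1 motif.

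Library totals ran between 33626901 and 67576994 counts, and 3 counts corresponded to 0.0406 to 0.0887 CPM, the count scaled to library size, across the libraries. Lta4h had 239 to 286 CPM in OE and 82.4 to 95.4 CPM in Ctrl at 20 weeks, and 251 to 427 CPM in OE and 79.4 to 104 CPM in Ctrl at 8 weeks, in the direction of the labels. On the first principal component the other 20-week libraries scored −96.6 to −66.7 and the other 8-week libraries 68.8 to 125, while OE 1 at 20 weeks scored 22.4, OE 1 at 8 weeks −19.5 and Ctrl 1 at 8 weeks −29.9. At 8 weeks, OE 2 and Ctrl 4 carried 2703 and 4095 CPM of 12 epididymal epithelium genes in sum, and their 8 smooth muscle markers summed to 4280 and 4330 CPM. The defining adipocyte markers were present throughout, with a summed level of 9815 to 35229 CPM in the 16 libraries.

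The receptors were read far more broadly than the ligands. The filter kept 36 of 40 receptor chains, 10 of 35 ligands and all 3 other genes. Of the 25 ligands that did not pass, 9 had 0 counts in all 16 libraries and 16 had few, with at most 28 counts in a library (Il13). Il17a, Il22, Il9, Il3, Il19, Il20, Il24, Il1f8 and Il1f10 were the ligands with 0 counts. Of the 4 receptors not kept, Il1rapl2 had 0 counts in every library, and Il23r, Il20ra and Il1rapl1 had at most 15.

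By deposited TPM, which is scaled per length and can be set side by side between genes, 15 receptor chains and 3 ligands averaged over 10 across the 16 libraries. Il6st, the signal chain shared by the IL-6 family, was the highest at 133 TPM. Il10rb followed at 96.7 TPM, Il11ra1 at 69.6 TPM, Il3ra at 37.1 TPM and Il10ra at 31.5 TPM. Il6ra averaged 30.4 TPM, Il4ra 29.6 TPM, Il7r 26.4 TPM and Il2rg 25.8 TPM. The highest ligand was Il34 at 25.2 TPM, followed by Il16 at 13.4 TPM and Il15 at 11.3 TPM. Il6, widely studied in obese fat, averaged 0.525 TPM. The lowest kept members were Il5ra at 0.203 TPM and Il22ra2 at 0.200 TPM.

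**Figure D1:**
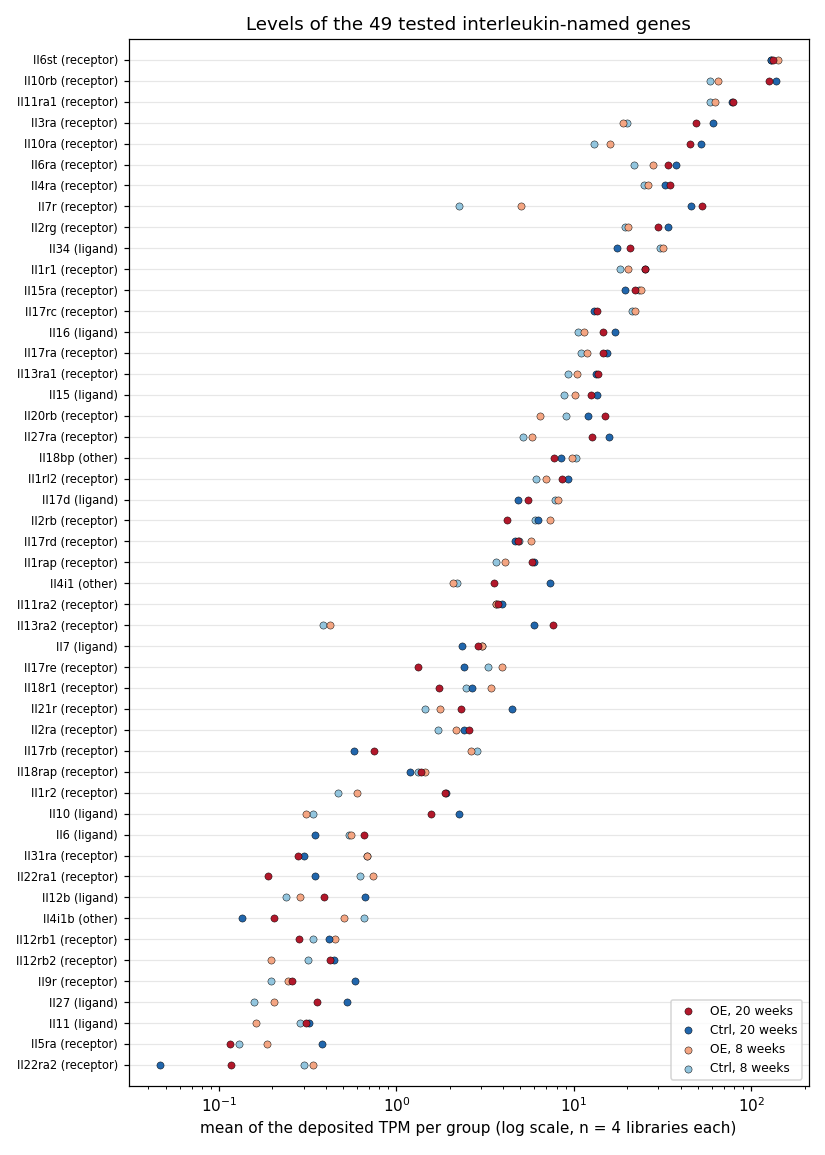
Mean deposited TPM (log scale) of the 49 tested genes in OE at 20 weeks, Ctrl at 20 weeks, OE at 8 weeks and Ctrl at 8 weeks, 4 libraries each, with each gene's role in brackets. Il6st lies at the top with 133 TPM over all libraries, and the widest gaps between ages are those of Il7r and Il13ra2.

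At 20 against 8 weeks, 8 of the 49 tested genes rose and 4 fell in OE, where 13.1% of all tested genes were called higher and 9.91% lower. The members' shares in OE were 16.3% higher and 8.16% lower, and their median log2 fold change was 0.18, beside −0.03 for all genes. In Ctrl, 18 of the 49 rose and 6 fell, where 19.6% of all genes were higher and 21.3% lower. The members' shares in Ctrl were 36.7% higher and 12.2% lower, with a median of 0.39 beside −0.05 for all genes. In bulk tissue, fewer cells of a type and less RNA per cell cannot be told apart.

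Without the 8-week libraries numbered 1, 7 genes were higher and 6 lower in OE, and 17 higher and 6 lower in Ctrl. When OE 1 at 20 weeks was also left out, 11 were higher and 7 lower in OE, and 19 higher and 6 lower in Ctrl. Leaving out the pair of libraries with epididymal transcripts gave 11 higher and 5 lower in OE, and 19 higher and 6 lower in Ctrl. With 2 surrogate variables in the fit, 6 were higher and 3 lower in OE, where Il10rb, Il1r2 and Il34 lost their calls, and 5 were higher and 0 lower in Ctrl. Those 5 were Il3ra, Il7r, Il13ra2, Il10ra and Il27ra. Il7r then had log2 fold changes of 2.46 in OE and 2.52 in Ctrl. Every other member called in Ctrl lost its call in that fit, where the log2 fold change was 0.21 for Il6ra (adjusted p = 0.479), 0.25 for Il15 (adjusted p = 0.361), −0.27 for Il17d (adjusted p = 0.582), −0.59 for Il17rb (adjusted p = 0.588) and 0.13 for Il11ra1 (adjusted p = 0.694).

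Among the ligands, Il34 fell in both genotypes. IL-34 shares its receptor, Csf1r, with the macrophage growth factor CSF1. Il34 had 20.3, 15.7, 14.6 and 18.8 CPM in OE at 20 weeks, against 30.3, 21.0, 26.6 and 33.2 CPM in OE at 8 weeks. The Ctrl libraries had 13.7, 16.1, 12.0 and 14.95 CPM at 20 weeks, against 29.7, 21.3, 32.8 and 24.1 CPM at 8 weeks. The ages did not overlap in either genotype. The log2 fold change was −0.68 ± 0.17 in OE (adjusted p = 0.00994) and −0.92 ± 0.17 in Ctrl (adjusted p = 8.23e-04). Csf1r, the receptor, rose in both, by 1.21 ± 0.22 in OE and 1.80 ± 0.22 in Ctrl on the log2 scale.

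Il16, a chemoattractant for CD4+ cells, was not called in OE and was called in Ctrl. The OE libraries had 24.5, 24.7, 27.7 and 27.3 CPM at 20 weeks, against 30.8, 26.9, 25.7 and 22.2 CPM at 8 weeks, which overlapped (log2 fold change −0.02 ± 0.12, adjusted p = 0.927). The Ctrl libraries had 38.8, 27.4, 30.5 and 32.01 CPM at 20 weeks, against 22.8, 19.7, 23.6 and 25.3 CPM at 8 weeks, with no overlap (0.49 ± 0.12, adjusted p = 0.00478). Stard5 on the opposite strand overlaps 15.3% of the Il16 exon bases and rose by 0.55 in OE and by 0.54 in Ctrl on the log2 scale. The strand setting of the counting is not given in the sources used here, so reads of these overlapping genes may not have been separated.

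Il15, a growth factor of NK and memory T cells, averaged 8.02 ± 0.71 CPM at 20 weeks and 6.72 ± 0.23 CPM at 8 weeks in OE (SD, n = 4 each), a log2 fold change of 0.25 ± 0.12 that was not called (adjusted p = 0.133). In Ctrl it averaged 8.34 ± 1.19 CPM at 20 weeks and 5.89 ± 0.51 CPM at 8 weeks and rose by 0.50 ± 0.12 on the log2 scale (adjusted p = 0.00474). Il10, the anti-inflammatory cytokine, had 0.491, 1.56, 0.864 and 0.969 CPM in OE at 20 weeks, against 0, 0.539, 0 and 0.196 CPM in OE at 8 weeks. In Ctrl, Il10 had 1.77, 1.52, 1.16 and 1.01 CPM at 20 weeks, against 0.292, 0.259, 0.181 and 0.203 CPM at 8 weeks. Levels were low throughout, and the ages overlapped in OE and not in Ctrl. The log2 fold change of Il10 was 2.38 ± 0.86 in OE, not called (adjusted p = 0.0594), and 2.53 ± 0.85 in Ctrl (adjusted p = 0.029). The call in Ctrl was lost when single Ctrl libraries were left out, with adjusted p-values of up to 0.0731. Il17d, a ligand of the IL-17 family, had a log2 fold change of −0.61 ± 0.22 in OE (adjusted p = 0.0586) and fell by 0.81 ± 0.22 in Ctrl (adjusted p = 0.0105), where the ages overlapped.

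The other 5 tested ligands, Il7, Il6, Il11, Il27 and Il12b, were called in neither genotype. Il11, a fibrosis-linked member of the IL-6 family, had 0.319, 0.222, 0.288 and 0.451 CPM in OE at 20 weeks and 0.198, 0.296, 0.148 and 0.0873 CPM in OE at 8 weeks. In Ctrl, Il11 had 0.203, 0.569, 0.276 and 0.245 CPM at 20 weeks and 0.212, 0.453, 0.272 and 0.338 CPM at 8 weeks, so the groups overlapped throughout. Il7, the ligand of Il7r, had log2 fold changes of −0.13 ± 0.23 in OE and −0.47 ± 0.23 in Ctrl.

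The counts of calls by receptor family that follow stand beside the shares over all genes given above. Those were 13.1% higher and 9.91% lower in OE and 19.6% higher and 21.3% lower in Ctrl. No family was tested as a set. Of the 8 tested chains of the common gamma chain receptors, 1 rose in OE, and 3 rose in Ctrl. Il7r, the alpha chain of the receptor for IL-7 and for thymic stromal lymphopoietin, had the largest fold change of the called members in Ctrl. OE libraries had 36.7, 84.1, 65.9 and 126 CPM of Il7r at 20 weeks, against 5.75, 16.5, 3.37 and 3.58 CPM at 8 weeks. Ctrl libraries had 55.6, 74.2, 78.7 and 56.8 CPM at 20 weeks, against 6.21, 2.27, 2.02 and 3.57 CPM at 8 weeks. Every 20-week library lay above every 8-week library, and the spread was widest in OE at 20 weeks. The log2 fold change was 3.43 ± 0.54 in OE (10.8-fold, adjusted p = 8.58e-04) and 4.24 ± 0.56 in Ctrl (18.9-fold, adjusted p = 1.13e-04). Without OE 2 at 8 weeks, which had 16.5 CPM, the log2 fold change in OE was 4.21 (adjusted p = 1.9e-04). Crlf2, which pairs with Il7r in the thymic stromal lymphopoietin receptor, rose by 1.37 ± 0.15 in OE and by 1.44 ± 0.15 in Ctrl.

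Il2rg, which pairs with Il7r in the IL-7 receptor, was not called, with log2 fold changes of 0.51 ± 0.28 in OE (adjusted p = 0.2) and 0.71 ± 0.28 in Ctrl (adjusted p = 0.0548). The ratio of Il7r to Il2rg in TPM had group medians of 1.48 in OE and 1.59 in Ctrl at 20 weeks, against 0.150 in OE and 0.122 in Ctrl at 8 weeks. A same-strand gene, Gm20489, covers 30.5% of the Il2rg exon bases, so its counts may be split. Of the 11 other T cell markers, Trac alone was called higher in each genotype, by 1.49 ± 0.48 in OE and 2.03 ± 0.49 in Ctrl. Their summed level was 15.6 to 36.5 CPM in OE and 19.8 to 87.9 CPM in Ctrl at 20 weeks, against 16.3 to 40.8 CPM in OE and 12.2 to 34.4 CPM in Ctrl at 8 weeks.

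Il9r, the IL-9 receptor, had 0.638, 1.43, 0.917 and 1.06 CPM in OE at 20 weeks, against 0.619, 1.35, 0.976 and 0.720 CPM in OE at 8 weeks (log2 fold change 0.15 ± 0.32). In Ctrl, Il9r had 2.96, 1.54, 2.29 and 1.39 CPM at 20 weeks, against 0.823, 0.691, 0.816 and 0.812 CPM at 8 weeks (1.38 ± 0.32, adjusted p = 0.00472). The OE ages overlapped and the Ctrl ages did not. Il21r, the IL-21 receptor, had a log2 fold change of 0.15 ± 0.55 in OE, and it took the opposite sign in 4 of the alternative settings. In Ctrl, Il21r rose by 1.62 ± 0.56 (adjusted p = 0.0326) with overlapping ages, and without Ctrl 1 at 20 weeks, which had 10.9 CPM, its adjusted p was 0.12. Ctrl 1 at 20 weeks also had the highest sums of B cell and T cell markers, 1872 and 87.9 CPM, and their part in the Il21r value was not tested. Il2ra, Il2rb and Il15ra, the chains for IL-2 and IL-15, were called in neither genotype.

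Of the 4 tested receptors of the type 2 and beta common families, Il13ra2 and Il3ra rose in both genotypes. Il13ra2, a second receptor for IL-13 that binds it tightly and is often described as a decoy, had the largest called change in OE. In OE it had 7.34, 6.67, 7.31 and 5.73 CPM at 20 weeks, against 0.520, 0.539, 0.414 and 0.437 CPM at 8 weeks. In Ctrl it had 4.06, 2.14, 4.67 and 10.2 CPM at 20 weeks, against 0.797, 0.389, 0.499 and 0.149 CPM at 8 weeks. No 20-week library overlapped an 8-week one, and Ctrl 4 at 20 weeks was the highest of all. The log2 fold change was 3.82 ± 0.50 in OE (14.1-fold, adjusted p = 4.1e-04) and 3.54 ± 0.49 in Ctrl (11.6-fold, adjusted p = 1.46e-04). Il13ra1, the chain that signals with Il4ra, was called in neither genotype (0.35 ± 0.17 in OE and 0.41 ± 0.17 in Ctrl). The Il13ra2 to Il13ra1 ratio in TPM had medians of 0.531 in OE and 0.341 in Ctrl at 20 weeks, against 0.0415 in OE and 0.0397 in Ctrl at 8 weeks.

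Il3ra, the alpha chain of the IL-3 receptor, had the smallest adjusted p of all members in both genotypes. Il3ra in OE had 30.2, 44.2, 38.0 and 45.8 CPM at 20 weeks, against 15.9, 18.2, 13.8 and 13.6 CPM at 8 weeks. Il3ra in Ctrl had 42.7, 56.2, 53.2 and 38.7 CPM at 20 weeks, against 20.7, 15.2, 15.2 and 14.8 CPM at 8 weeks. The ages were well apart in both, with a log2 fold change of 1.36 ± 0.16 in OE (adjusted p = 2.8e-04) and 1.54 ± 0.16 in Ctrl (adjusted p = 4.3e-05). Il3, the ligand, had no count in any library. Csf2ra, the GM-CSF receptor alpha chain of the same family, rose by 1.91 ± 0.32 in OE and 2.03 ± 0.32 in Ctrl. Csf2rb2, in mice the beta chain particular to IL-3, rose by 1.91 ± 0.32 in OE and 2.11 ± 0.32 in Ctrl. Il4ra and Il5ra, the IL-4 and IL-5 receptor alpha chains, were not called in either genotype.

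Of 5 tested chains of the IL-10 receptor family, 3 rose in OE, and 2 rose and 1 fell in Ctrl. Both chains of the receptor for IL-10 itself rose in both genotypes. Il10ra, the ligand-binding chain, had 50.9, 80.6, 74.7 and 87.9 CPM in OE at 20 weeks, against 27.1, 38.5, 18.8 and 21.7 CPM in OE at 8 weeks. In Ctrl, Il10ra had 80.0, 86.2, 106 and 62.2 CPM at 20 weeks, against 27.0, 16.3, 19.0 and 25.8 CPM at 8 weeks. The ages did not overlap, and the log2 fold change was 1.47 ± 0.25 in OE (adjusted p = 0.00122) and 1.93 ± 0.25 in Ctrl (adjusted p = 1.02e-04).

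Il10rb, which also serves the receptors for IL-22 and type III interferons, had 72.3, 125, 102 and 137 CPM in OE at 20 weeks, against 65.7, 61.1, 55.7 and 51.8 CPM in OE at 8 weeks. Il10rb in Ctrl had 120, 132, 132 and 90.03 CPM at 20 weeks, against 67.9, 50.9, 52.5 and 43.8 CPM at 8 weeks. OE 1 at 20 weeks lay closest to the 8-week libraries. The log2 fold change was 0.89 ± 0.19 in OE (adjusted p = 0.00425) and 1.14 ± 0.19 in Ctrl (adjusted p = 4.84e-04). Gm21970 covers 14.9% of the Il10rb exon bases on the same strand. The TPM ratio of Il10ra to Il10rb had medians of 0.360 in OE and 0.361 in Ctrl at 20 weeks, against 0.221 in OE and 0.202 in Ctrl at 8 weeks.

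Of the other tested chains of this family, Il20rb, a chain of the receptors for IL-19, IL-20 and IL-24, was called higher in OE with overlapping ages (1.18 ± 0.35, adjusted p = 0.0272). Il20rb averaged 17.4 ± 5.73 CPM in OE at 20 weeks and 7.64 ± 4.04 CPM in OE at 8 weeks (SD, n = 4 each). It lost the call when single OE libraries were left out, with adjusted p-values of up to 0.0844, and was not called in Ctrl (0.31 ± 0.35). Il22ra2, a soluble protein that traps IL-22, had a fitted log2 fold change of −1.49 ± 0.84 in OE (adjusted p = 0.213) and was called lower in Ctrl, at −2.75 ± 0.92 (adjusted p = 0.0295). It had 0.221, 0, 0.105 and 0.248 CPM in OE at 20 weeks, against 0.446, 0.620, 0.207 and 0.371 CPM in OE at 8 weeks. In Ctrl, Il22ra2 had 0, 0.108, 0.101 and 0 CPM at 20 weeks, against 0.372, 0.410, 0.363 and 0.352 CPM at 8 weeks, so the estimate rests on few reads, and its adjusted p in Ctrl was 0.0684 without Ctrl 1 at 20 weeks, 0.0667 without Ctrl 4 at 20 weeks, 0.0588 without Ctrl 2 at 8 weeks and 0.0537 without Ctrl 3 at 8 weeks. Il22ra1, the IL-22 receptor, was called in neither genotype.

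**Figure D2:**
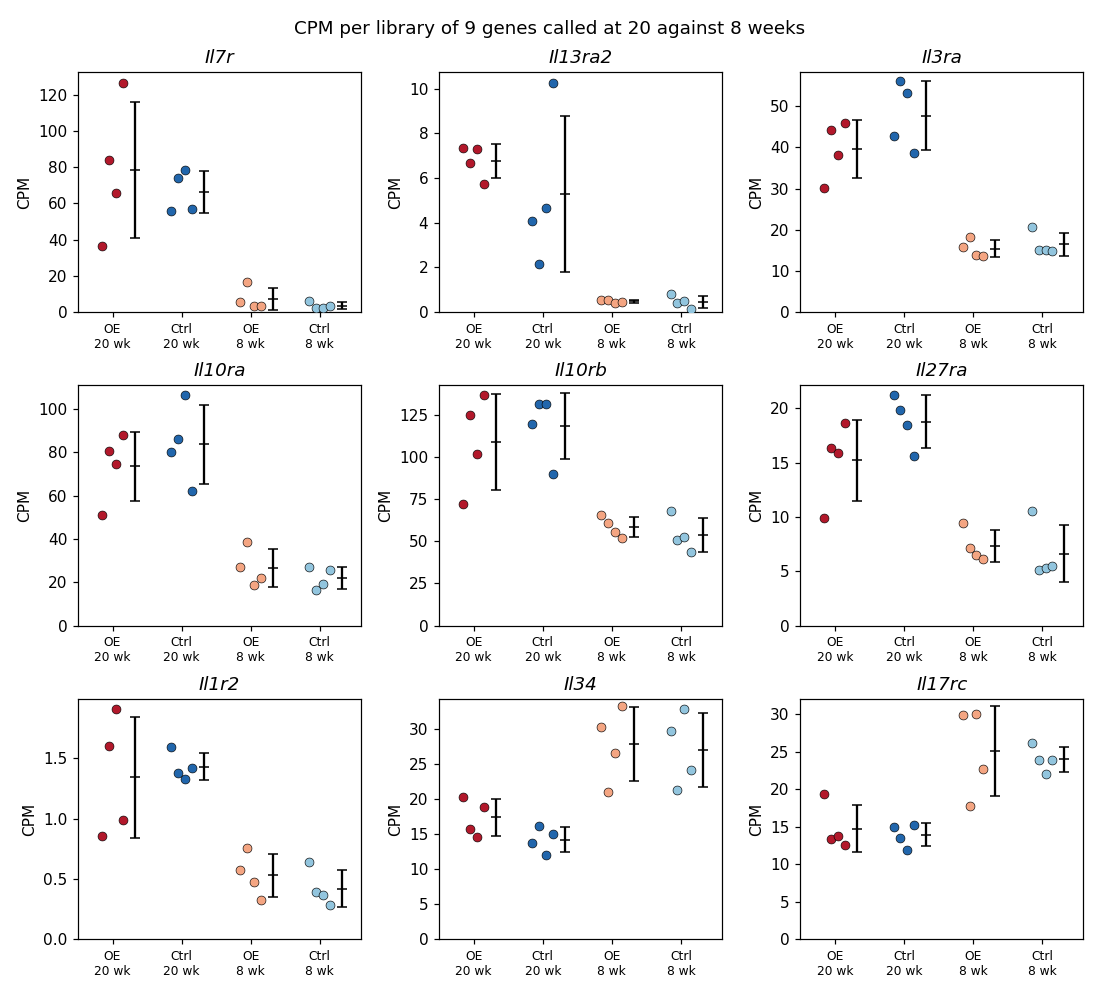
CPM per library (points) with mean and SD (bars) for 9 genes called at 20 against 8 weeks in both genotypes, in the order OE at 20 weeks, Ctrl at 20 weeks, OE at 8 weeks and Ctrl at 8 weeks, with every axis starting at 0. Il7r had 36.7 to 126 CPM in OE at 20 weeks against 3.37 to 16.5 CPM in OE at 8 weeks, and Il34 and Il17rc were lower at 20 weeks.

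Of 6 tested chains of the gp130 family, 1 rose in OE, and 3 rose and 1 fell in Ctrl, and the shared chain was not called. Il6st had 360, 315, 356 and 320 CPM in OE at 20 weeks, against 366, 369, 417 and 341 CPM in OE at 8 weeks. In Ctrl, Il6st had 325, 325, 312 and 339 CPM at 20 weeks, against 380, 348, 295 and 359 CPM at 8 weeks. The log2 fold changes were −0.14 ± 0.09 in OE and −0.09 ± 0.09 in Ctrl, and the ages overlapped.

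Il27ra, the private chain of the IL-27 receptor, rose in both genotypes. It had 9.87, 16.4, 15.9 and 18.7 CPM in OE at 20 weeks, against 9.46, 7.14, 6.54 and 6.13 CPM in OE at 8 weeks. Il27ra in Ctrl had 21.3, 19.8, 18.5 and 15.6 CPM at 20 weeks, against 10.6, 5.16, 5.31 and 5.44 CPM at 8 weeks. OE 1 at 20 weeks lay just above OE 1 at 8 weeks, and the other libraries were well apart by age. The log2 fold change was 1.06 ± 0.25 in OE (adjusted p = 0.00784) and 1.51 ± 0.25 in Ctrl (adjusted p = 4.74e-04).

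Il6ra, the IL-6 binding chain, had 38.0, 59.9, 49.7 and 66.3 CPM in OE at 20 weeks, against 47.2, 44.0, 43.8 and 47.6 CPM in OE at 8 weeks (log2 fold change 0.23 ± 0.15, adjusted p = 0.299). In Ctrl, where it was called, it had 66.7, 59.1, 61.0 and 48.5 CPM at 20 weeks, against 43.5, 32.04, 31.2 and 38.3 CPM at 8 weeks (0.70 ± 0.16, adjusted p = 0.00329). OE 1 at 20 weeks lay below all OE libraries at 8 weeks, whereas the Ctrl ages did not overlap. The Il6ra to Il6st ratio in TPM had medians of 0.266 in OE and 0.304 in Ctrl at 20 weeks, against 0.2005 in OE and 0.171 in Ctrl at 8 weeks.

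Il11ra1, the IL-11 receptor, had 51.8, 64.4, 63.1 and 80.8 CPM in OE at 20 weeks, against 56.2, 50.1, 56.5 and 52.4 CPM in OE at 8 weeks (0.27 ± 0.12, adjusted p = 0.104). In Ctrl, Il11ra1 had 59.7, 67.1, 70.3 and 55.5 CPM at 20 weeks, against 50.1, 52.3, 55.4 and 46.1 CPM at 8 weeks. The Ctrl ages did not overlap but came close, and the call (0.31 ± 0.12, adjusted p = 0.0466) was lost in most of the repeats that left out a library. Il11ra1 is 99.0% identical to Il11ra2 over 1299 bases and 99.0% identical to Gm13305 over 1654 bases. Il11ra2 is 100% identical to Gm13305 over 1299 bases, so the split of reads among these genes is uncertain. Il31ra, the private chain of the IL-31 receptor, had a log2 fold change of −1.30 ± 0.45 in OE (adjusted p = 0.0503) and fell by 1.25 ± 0.45 in Ctrl (adjusted p = 0.0384). Without Ctrl 3 at 20 weeks the adjusted p of Il31ra in Ctrl was 0.109.

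Of 7 tested chains of the IL-1 receptor family, the soluble Il18bp included, 1 rose and 1 fell in OE, and 2 rose in Ctrl. Il1r2, which binds IL-1 without signalling, had 0.859, 1.61, 1.91 and 0.992 CPM in OE at 20 weeks, against 0.570, 0.754, 0.473 and 0.327 CPM in OE at 8 weeks. Its Ctrl levels were 1.59, 1.38, 1.33 and 1.42 CPM at 20 weeks, against 0.637, 0.389, 0.363 and 0.284 CPM at 8 weeks. The ages did not overlap, and the log2 fold change was 1.33 ± 0.34 in OE (adjusted p = 0.012) and 1.78 ± 0.34 in Ctrl (adjusted p = 0.0013). Il1r1, the signalling receptor, was called in neither genotype. The ratio of Il1r2 to Il1r1 in TPM had medians of 0.0653 in OE and 0.0760 in Ctrl at 20 weeks, against 0.0313 in OE and 0.0248 in Ctrl at 8 weeks. Il1rap, the accessory chain of this family, had a log2 fold change of 0.43 ± 0.17 in OE (adjusted p = 0.0854) and rose in Ctrl by 0.65 ± 0.17 (adjusted p = 0.00975).

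Il18r1, the IL-18 binding chain, fell in OE. It had 2.72, 4.64, 2.88 and 1.83 CPM in OE at 20 weeks, against 5.47, 8.43, 5.89 and 4.87 CPM in OE at 8 weeks, with no overlap (−1.03 ± 0.29, adjusted p = 0.0193). Without single OE libraries the adjusted p of Il18r1 in OE was up to 0.0634. Il18r1 in Ctrl had 6.72, 2.98, 4.25 and 4.36 CPM at 20 weeks, against 4.30, 3.97, 4.49 and 5.26 CPM at 8 weeks, and the log2 fold change of 0.02 ± 0.28 changed sign with the setting. Its partner Il18rap, the soluble IL-18 trap Il18bp and the IL-36 receptor Il1rl2 were called in neither genotype.

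Of 5 tested chains of the IL-17 receptor family, 2 fell and 0 rose in OE, and 2 fell and 1 rose in Ctrl. Il17rc, which pairs with Il17ra to bind IL-17A and IL-17F, had 19.3, 13.3, 13.7 and 12.6 CPM in OE at 20 weeks, against 29.9, 17.8, 30.02 and 22.7 CPM in OE at 8 weeks. In Ctrl it had 14.9, 13.5, 11.9 and 15.3 CPM at 20 weeks, against 26.1, 23.9, 22.1 and 23.8 CPM at 8 weeks. The OE ages overlapped in 1 library of each age and the Ctrl ages were well apart, with a log2 fold change of −0.77 ± 0.17 in OE (adjusted p = 0.00528) and −0.79 ± 0.17 in Ctrl (adjusted p = 0.00249).

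Il17re, the partner of Il17ra for IL-17C, lies on the same strand with its end 696 bases before the start of Il17rc. It had 1.18, 2.35, 1.20 and 2.14 CPM in OE at 20 weeks, against 5.60, 3.58, 6.03 and 5.55 CPM in OE at 8 weeks. In Ctrl it had 3.24, 2.25, 2.41 and 3.95 CPM at 20 weeks, against 3.13, 3.97, 5.35 and 4.75 CPM at 8 weeks. The OE ages were well apart (−1.59 ± 0.28, adjusted p = 0.0017) and the Ctrl ages overlapped (−0.54 ± 0.28, adjusted p = 0.134).

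Il17rb, the IL-25 receptor, had 1.25, 0.914, 0.314 and 0.428 CPM in OE at 20 weeks, against 0.446, 3.64, 2.19 and 3.82 CPM in OE at 8 weeks (log2 fold change −1.79 ± 0.69, adjusted p = 0.0738). In Ctrl it had 0.608, 0.758, 0.201 and 0.681 CPM at 20 weeks, against 0.637, 2.66, 3.40 and 4.52 CPM at 8 weeks (−2.32 ± 0.70, adjusted p = 0.0185). The 8-week libraries numbered 1 were low in both genotypes and overlapped the 20-week libraries, and without Ctrl 3 at 20 weeks the adjusted p in Ctrl was 0.0566. Il17ra, the shared chain, rose in Ctrl by 0.39 ± 0.13 (adjusted p = 0.0265), and without Ctrl 1 at 20 weeks its adjusted p was 0.0906. Il17rd, which also restrains growth factor signalling, had 20.8, 17.0, 17.4 and 19.6 CPM in OE at 20 weeks and 27.1, 19.4, 20.9 and 24.9 CPM in OE at 8 weeks. In Ctrl, Il17rd had 18.3, 16.4, 16.8 and 19.0 CPM at 20 weeks and 18.5, 17.3, 20.7 and 21.9 CPM at 8 weeks, and it was called in neither genotype.

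Il12rb2, the signal chain of the IL-12 receptor, had a log2 fold change of 0.85 ± 0.30 in OE (adjusted p = 0.0567) and was called higher in Ctrl, with overlapping ages (1.04 ± 0.30, adjusted p = 0.0153). Serbp1 covers 40.0% of its exon bases on the opposite strand and was not called, at 0.05 ± 0.10 in OE and 0.04 ± 0.10 in Ctrl. Il12rb1, its partner, was called in neither genotype. Il4i1, a secreted enzyme that breaks down aromatic amino acids, had 4.15, 3.83, 3.35 and 2.34 CPM in OE at 20 weeks, against 2.63, 3.26, 0.917 and 1.33 CPM in OE at 8 weeks. In Ctrl, Il4i1 had 11.9, 5.50, 5.91 and 4.41 CPM at 20 weeks, against 2.47, 2.27, 2.70 and 1.48 CPM at 8 weeks, with no overlap. Its log2 fold change was 0.75 ± 0.39 in OE (adjusted p = 0.184) and 1.64 ± 0.40 in Ctrl (adjusted p = 0.00574). Tbc1d17 covers 83.9% of the Il4i1 exon bases on the opposite strand. Its log2 fold change was −0.29 ± 0.08 in OE and −0.05 ± 0.08 in Ctrl, of which only the OE value was called. Il4i1b, at 44816370-44840804 on chromosome 7, spans most of Il4i1 at 44836288-44840809 and was called in neither genotype. Its log2 fold change had the opposite sign, −1.33 in OE and −2.25 ± 0.95 in Ctrl (adjusted p = 0.0711). In Ctrl it averaged 0.153 CPM at 20 weeks and 0.728 CPM at 8 weeks, and the ages did not overlap. The split of reads between Il4i1 and Il4i1b is uncertain.

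Set side by side, 7 genes were called higher in both genotypes, which is 87.5% of the 8 called in OE and 38.9% of the 18 called in Ctrl. These were Il3ra, Il7r, Il13ra2, Il10ra, Il10rb, Il27ra and Il1r2. Over all genes, 91.8% of those called higher in OE and 61.1% of those called higher in Ctrl were called in both. Il34 and Il17rc were called lower in both, 50% of the 4 in OE and 33.3% of the 6 in Ctrl, beside 84.3% and 39.3% over all genes. Of the 27 genes called in either genotype, 25 had the same sign in both, the exceptions being Il16 and Il18r1. Of the called members, 10 of 12 in OE and 20 of 24 in Ctrl had ages that did not overlap. Over all tested members the ages did not overlap, higher, for 9 in OE and 18 in Ctrl, where 12.9% and 18.5% of all genes did so, and, lower, for 5 in each, where 9.5% and 14.8% did.

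**Figure D3:**
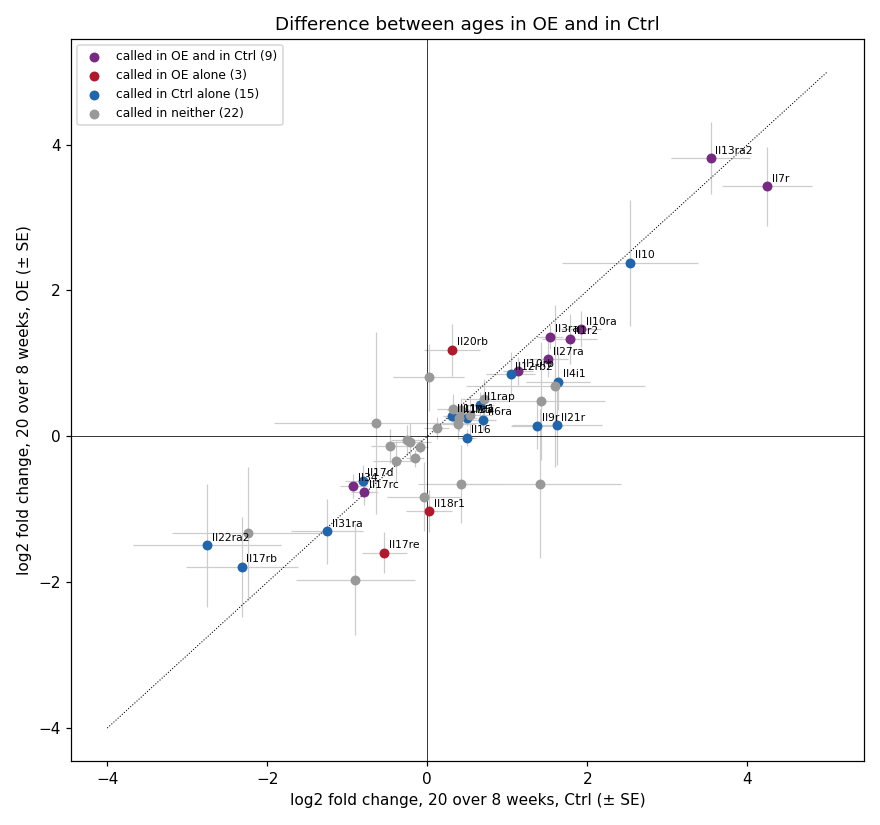
Log2 fold change at 20 over 8 weeks (± SE) in OE (vertical axis) against Ctrl (horizontal axis) for the 49 tested genes, coloured by where they were called, with a dotted line at equal change. Il7r lies at 3.43 in OE and 4.24 in Ctrl, and 25 of the 27 genes called in either genotype have the same sign in both.

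**Figure D4:**
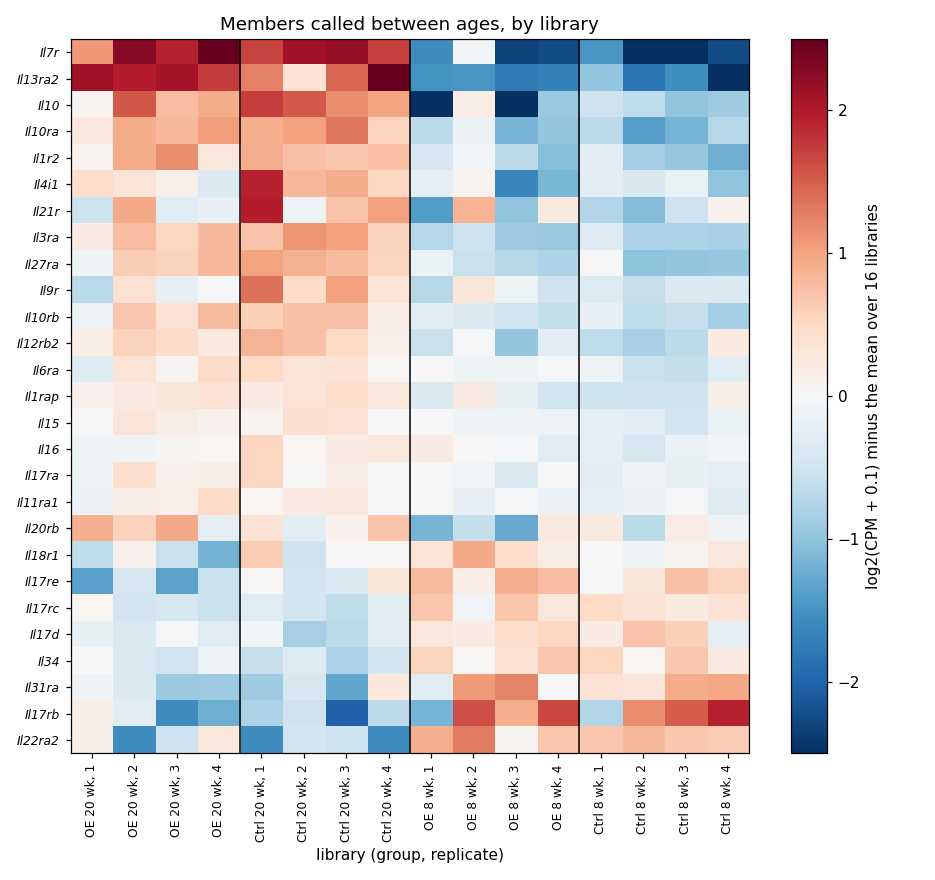
Log2(CPM + 0.1) of the 27 genes called between ages in either genotype, minus each gene's mean over the 16 libraries, one column per library, with colours held at 2.5 in either direction. The genes that rose are high in the 20-week columns, where OE 1 was the lowest of its group for 6 of the 8 genes called higher in OE.

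Markers of several cell types moved with age beside these genes. Of 12 macrophage markers, 10 rose and 1 fell in OE, with a median log2 fold change of 1.42, and 11 rose in Ctrl, with a median of 1.99. Their summed level was 3618 to 8327 CPM in OE and 5342 to 8567 CPM in Ctrl at 20 weeks, against 1886 to 3238 CPM in OE and 1495 to 2560 CPM in Ctrl at 8 weeks. Mast cell markers rose for 6 of 10 in OE and 7 of 10 in Ctrl, with sums of 97.5 to 165 CPM in OE and 154 to 312 CPM in Ctrl at 20 weeks, against 41.6 to 112 CPM in OE and 34.2 to 107 CPM in Ctrl at 8 weeks. B and plasma cell markers rose for 1 of 10 in OE and 8 of 10 in Ctrl, although their sums, 292 to 774 CPM in OE and 320 to 1872 CPM in Ctrl at 20 weeks, overlapped those at 8 weeks, 611 to 1439 CPM in OE and 404 to 1100 CPM in Ctrl. Of 6 tested neutrophil markers, 1 rose in OE and 2 in Ctrl. The sums of all 8 were 27.5 to 50.7 CPM in OE and 29.6 to 44.0 CPM in Ctrl at 20 weeks. At 8 weeks they were 9.58 to 21.8 CPM in OE and 11.2 to 21.0 CPM in Ctrl. Of 8 dendritic cell markers, 1 rose and 2 fell in OE, and 2 rose and 1 fell in Ctrl. Their sums were 115 to 145 CPM in OE and 138 to 167 CPM in Ctrl at 20 weeks. At 8 weeks they were 68.7 to 99.3 CPM in OE and 77.8 to 117 CPM in Ctrl. NK and innate lymphoid markers rose for 0 of 9 in each genotype, and 0 fell in OE and 2 in Ctrl. Their sums were 48.3 to 61.9 CPM in OE and 42.8 to 56.0 CPM in Ctrl at 20 weeks. The 8-week sums were 57.4 to 94.3 CPM in OE and 52.0 to 138 CPM in Ctrl. Among 10 adipose stromal progenitor markers, 1 rose and 1 fell in OE, and 3 rose and 0 fell in Ctrl. Mature adipocyte markers fell for 7 of 10 in each genotype. Of 8 smooth muscle markers, 6 fell in OE and 7 in Ctrl, with median log2 fold changes of −2.01 in OE and −2.52 in Ctrl, and sums of 387 to 697 CPM in OE and 270 to 436 CPM in Ctrl at 20 weeks, against 879 to 4280 CPM in OE and 858 to 4330 CPM in Ctrl at 8 weeks. Of 8 endothelial markers, 3 fell in OE and 7 in Ctrl, with sums of 596 to 1108 CPM in OE and 578 to 799 CPM in Ctrl at 20 weeks, against 1071 to 1350 CPM in OE and 1033 to 1269 CPM in Ctrl at 8 weeks. Of 8 mesothelial markers, 7 fell in OE and 2 in Ctrl. Mesothelial sums were 44.8 to 121 CPM in OE at 20 weeks, against 299 to 375 CPM in OE at 8 weeks, and 132 to 330 CPM in Ctrl at 20 weeks, against 167 to 372 CPM in Ctrl at 8 weeks. The ages thus lay apart in OE and overlapped in Ctrl, as they did for Il17re and Il18r1. Il34 and Il17rc, in contrast, fell in both genotypes, and no interaction was called for any of these genes. The part of these cell types in the values of the interleukin genes was not tested.

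Single libraries stood at the edge of their group for many of the 49 genes. OE 1 at 20 weeks was the lowest of its group for 26 genes, among them 6 of the 8 called higher in OE, and it had the lowest macrophage sum of the 20-week libraries, 3618 CPM. Ctrl 1 at 20 weeks was the highest of its group for 26 genes, among them 10 of the 18 called higher in Ctrl.

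No interleukin or interleukin receptor gene was called between OE and Ctrl at either age. At 20 weeks, 0 of 49 were called, where 0.0261% of all genes were called higher and 0% lower by edgeR's quasi-likelihood test with Benjamini-Hochberg adjustment. At an unadjusted p under 0.05 there were 4 of the 49. At 8 weeks, 0 of 49 were called, beside 0.0208% of all genes higher and 0% lower, with 1 of the 49 at an unadjusted p under 0.05. DESeq2 and limma voom also called 0 of 49 in either comparison. The median log2 fold change of the 49 was −0.06 at 20 weeks, beside 0.02 for all genes, and 0.12 at 8 weeks, beside 0.0018 for all genes.

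The genes with the smallest p-values are given as values. At 20 weeks Il9r had a log2 fold change of −1.01 ± 0.32 (adjusted p = 0.996), with 0.638 to 1.43 CPM in OE and 1.39 to 2.96 CPM in Ctrl. For Il17re it was −0.78 ± 0.28, with 1.18 to 2.35 CPM in OE and 2.25 to 3.95 CPM in Ctrl. For Il16 it was −0.30 ± 0.12, for Il18r1 −0.60 ± 0.29 and for Il4i1 −1.02 ± 0.39. Il4i1 was the only one of the 49 whose groups did not overlap at 20 weeks, with 2.34 to 4.15 CPM in OE and 4.41 to 11.9 CPM in Ctrl, where 1.49% of all genes did not overlap in this direction and 1.24% in the other.

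At 8 weeks Il6ra had a log2 fold change of 0.33 ± 0.15 (adjusted p = 1), with 43.8 to 47.6 CPM in OE and 31.2 to 43.5 CPM in Ctrl. Il7r had 1.06 ± 0.52, with 3.37 to 16.5 CPM in OE and 2.02 to 6.21 CPM in Ctrl, which overlapped. OE 2 supplied the highest of these Il7r values and was one of the libraries with epididymal transcripts, and without it the log2 fold change was 0.28. The log2 fold changes were 0.23 ± 0.11 for Il17rd, 0.21 ± 0.12 for Il16 and −0.81 ± 0.46 for Il11. The groups did not overlap for Il6ra and Il15, 2 of the 49, both higher in OE, where 0.787% of all genes did so and 0.448% were lower without overlap.

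**Figure D5:**
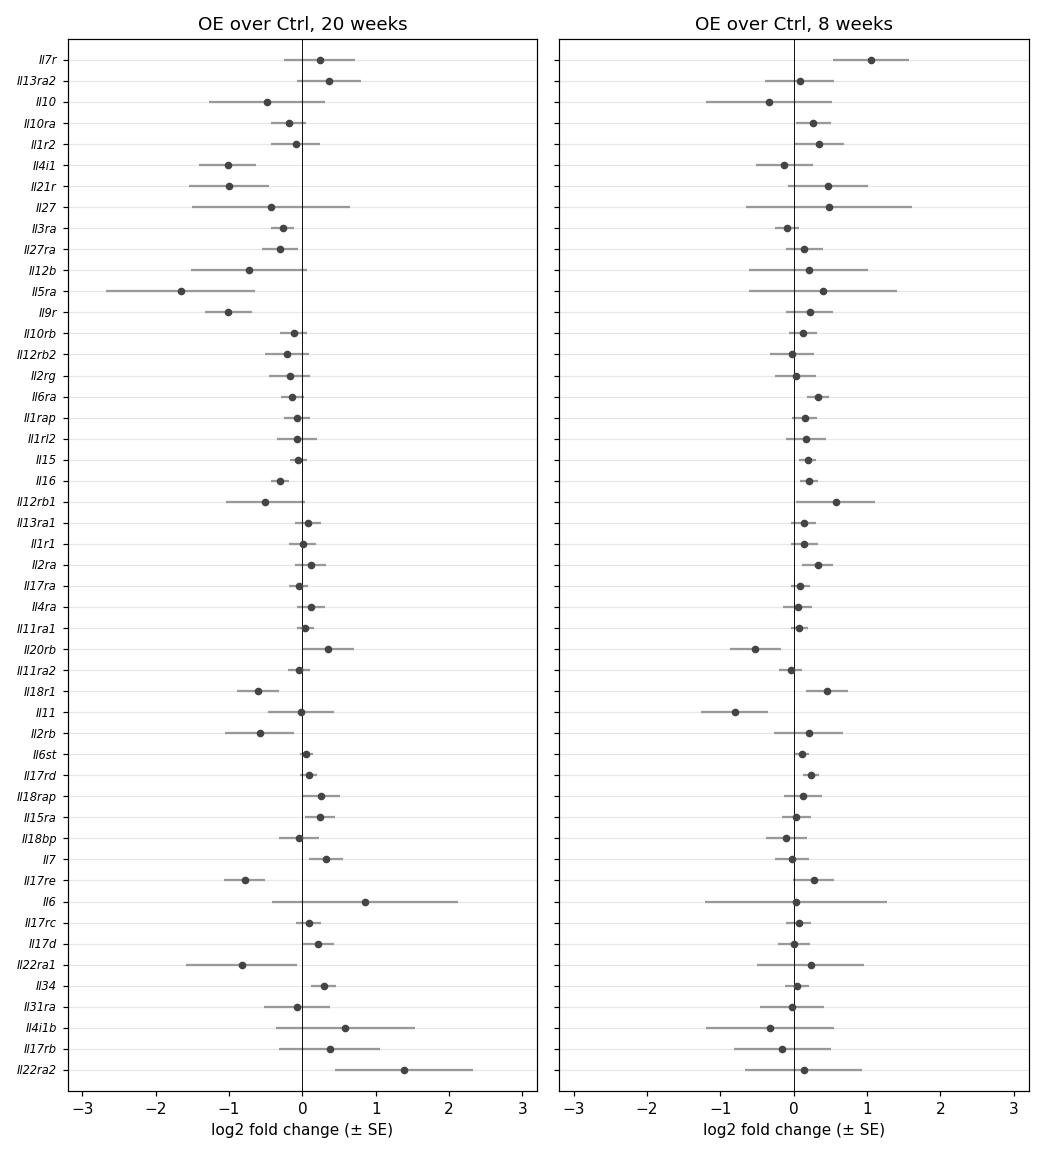
Log2 fold change of OE over Ctrl (± SE) for the 49 tested genes at 20 weeks (left) and 8 weeks (right), in the same order of genes. None was called, and the values of Il9r and Il4i1 at 20 weeks lie near −1.01 and −1.02.

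The change between ages was not found to differ between genotypes for any of the 49 genes, nor for any gene in all (0% called higher and 0% lower). The smallest adjusted p among the 49 was 0.982, for Il16, whose interaction, the OE change minus the Ctrl change, was −0.51 ± 0.16. It was −1.23 ± 0.46 for Il9r, −1.05 ± 0.39 for Il17re, −1.05 ± 0.40 for Il18r1 and −0.47 ± 0.22 for Il6ra. There were 5 of the 49 at an unadjusted p under 0.05, and DESeq2 and limma voom called 0 of 49. The calls in Ctrl that were missing in OE are thus not shown to be particular to Ctrl.

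The genes that carry interleukin signals were read from lists drawn up with earlier results of these data known. Their counts stand beside the shares over all genes given above, 13.1% higher and 9.91% lower in OE and 19.6% higher and 21.3% lower in Ctrl. Of 26 JAK, STAT and SOCS genes, 4 rose and 2 fell in OE and 7 rose and 4 fell in Ctrl. Ptpn6, a phosphatase that restrains JAK signalling, rose by 1.65 ± 0.28 in OE and 2.07 ± 0.28 in Ctrl. Tyk2, the kinase bound to Il10rb, rose by 0.55 ± 0.13 in OE and 0.78 ± 0.13 in Ctrl. Stat5a, which acts downstream of IL-7 and IL-3, fell by 0.33 ± 0.10 in OE and by 0.45 ± 0.10 in Ctrl.

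Of 20 adaptor genes of the IL-1 and IL-17 receptors, 3 rose and 3 fell in OE and 7 rose and 3 fell in Ctrl. Irak3, which dampens signalling from these receptors in macrophages, rose by 0.40 ± 0.11 in OE and 0.66 ± 0.11 in Ctrl. Peli2, a ubiquitin ligase of the pathway, fell by 0.63 ± 0.15 in OE and by 0.67 ± 0.15 in Ctrl. Nfkb1, a subunit of NF-κB, was not called in OE (0.27 ± 0.10) and rose in Ctrl by 0.48 ± 0.10. Nfkbiz, an IL-17 and IL-1 induced partner of NF-κB, was not called in OE (0.38 ± 0.19) and rose in Ctrl by 0.88 ± 0.19. Of 18 tested partner chains and related cytokines, 7 rose and 1 fell in OE and 8 rose and 1 fell in Ctrl, with medians of 0.71 in OE and 0.63 in Ctrl. No gene of the 3 lists was called between OE and Ctrl.

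Several of these genes lie in runs on mm10. One run on chromosome 1 at 40084692-40551707 holds Il1r2, Il1r1, Il1rl2, Il18r1 and Il18rap, and its members did not move together: Il1r2 rose in both genotypes, Il18r1 fell in OE, and the other 3 were called in neither. Il17re and Il17rc adjoin on chromosome 6. Il6st and Il31ra lie within chromosome 13 at 112464070-112580732, where Il31ra fell in Ctrl and Il6st was not called. Il4ra and Il21r lie within chromosome 7 at 125552271-125634397, where Il21r rose in Ctrl and Il4ra was not called.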

How the data were processed

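RNA-seq of epididymal fat was read in 16 libraries, 4 per group. Per the labels' protocols, RNA was isolated with RNeasy and made into libraries with the TruSeq stranded mRNA kit. The tools listed in the submitters' processing notes are bcl2fastq 2.20.0, Trimmomatic, HISAT2 2.1.0 and StringTie 2.1.3b, with the mm10 build. The strand setting of counting and the annotation release are not given in the sources used here. The deposited counts, whole numbers per gene that may be rounded estimates from coverage, were tested. The authors' TPM (per kilobase, scaled to one sum per library) served for levels and ratios only, and the deposited FPKM values were not used.

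Counts were fitted in R 4.3.3 with edgeR 4.0.16 (filterByExpr at a minimum count of 10, TMM, robust quasi-likelihood fit of all 4 groups, 12 residual degrees of freedom). Benjamini-Hochberg adjustment ran over all 19189 kept genes, with calls at an adjusted p under 0.05. Except where DESeq2 or limma is named, log2 fold changes ± SE and adjusted p-values come from this fit, and CPM use TMM-scaled library sizes. Alternatives used DESeq2 1.42.0, limma 3.58.1 and sva 3.50.0, other scalings and filters, and fits without single libraries. Simulated data were drawn independently per library around a mean common to all groups, with few genes changed. They did not model libraries that stood apart from their group. Their shares therefore need not hold for the age comparisons, where many genes were called. They also need not hold for OE over Ctrl. There, 5 genes were called at 20 weeks and 4 at 8 weeks, fewer than the simulation changed. On simulated data for the OE age comparison (18767 genes), 47% of 2-fold and 72.6% of 4-fold changes were recovered, with 1.14% false among the calls. For the Ctrl age comparison (18769 genes) the shares were 50% and 75.4%, with 2.06% false. For OE over Ctrl they were 49.2% and 77.3%, with 1% false, at 20 weeks (18756 genes), and 37.3% and 70.3%, with 8.33% false, at 8 weeks (18768 genes). Of 1.5-fold changes, 16.4% were recovered in the OE and 20.3% in the Ctrl age comparison. For OE over Ctrl the 1.5-fold share was 25.8% at 20 weeks and 10.8% at 8 weeks, so most differences of that size would be missed.

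All 78 genes were matched by gene ID to RefSeq, and near-identical transcripts were sought with BLAST 2.17.0. Values in every library are given for Il7r, for the 8 called genes of smallest adjusted p in each age comparison, for the 5 genes of highest mean TPM, and for the 5 genes of smallest p in each comparison of genotypes and in the interaction; up to 4 called genes per signalling list are named. Il10, Il22ra2 and Il17rb, whose libraries are also given, were chosen after their values were seen. The genes and lists were chosen with earlier results of these data known.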

Additional observations from a re-analysis of the deposited data

Results flagged for a closer look

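Within groups of 4 libraries, 3 values stood farther from their group than Dixon's 95% limit allows, among 76 combinations of 19 genes and 4 groups. Chance alone gives about 1 in 20. Il27ra had 10.6 CPM in Ctrl 1 at 8 weeks, against 5.16 to 5.44 CPM in the other 3 libraries of the group. Il3ra had 20.7 CPM in the same library, against 14.8 to 15.2 CPM in the others. Il9r had 0.691 CPM in Ctrl 2 at 8 weeks, against 0.812 to 0.823 CPM in the others.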

How the results depend on the processing

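Of 26 settings, 7 of the 12 calls in OE (Il10ra, Il13ra2, Il27ra, Il3ra, Il7r, Il17rc and Il17re) and 5 of the 24 in Ctrl (the first 5 of these) held in all, and 3 calls in OE and 12 in Ctrl were lost only with 2 surrogate variables. No call of the genotype comparisons or the interaction appeared in any setting, and no called gene changed sign. In OE, limma voom called 18 higher and 10 lower, DESeq2 9 lower, and the fit without the 8-week libraries numbered 1 and OE 1 at 20 weeks 7 lower. With 2 surrogate variables, Ctrl had 5 genes higher and 0 lower. Leaving out each library in turn gave 7 to 12 higher and 3 to 7 lower in OE, where the 7 lower came without OE 1 at 20 weeks, and 14 to 20 higher and 4 to 7 lower in Ctrl. Signs changed only for genes that were not called. Il18r1 in Ctrl was −0.11 with voom, −0.21 with surrogate variables, −0.00098 without the 8-week libraries numbered 1, −0.0021 also without OE 1 at 20 weeks, and −0.22 to 0.18 without single libraries. In OE, Il6ra was −0.11 and Il9r −0.16 with surrogate variables. Il9r was −0.0010 without the 8-week libraries numbered 1 and −0.068 to 0.39 without single libraries. Il16 was 0.075 with voom, 0.064 without the 8-week libraries numbered 1, 0.088 also without OE 1 at 20 weeks, and −0.093 to 0.064 without single libraries. Il21r was −0.13 without the 8-week libraries numbered 1, and −0.31 to 0.66 without single libraries. The cause was not tested. Replicate numbers did not pair the samples throughout: same-numbered OE and Ctrl libraries had correlations of −0.198 to 0.826 at 8 weeks and −0.239 to 0.0292 at 20 weeks. The value of 0.826 was that of the 8-week libraries numbered 1, which also stood apart on the first principal component. The labels do not say what these libraries share. With the number as a replicate block, 8 genes were higher and 5 lower in OE, 16 higher and 4 lower in Ctrl, and 0 elsewhere. Below 3 counts a library shows no level, which limits most ligands.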
